A study of Sus scrofa with 12 samples.

Results

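The porcine endothelial cell line AOC was compared with IEC2, porcine induced pluripotent stem cells taken after 2 days of endothelial induction, to see which functions separate an established endothelium from the earliest induced cells. The comparison used 6 of the 12 libraries of the series, 3 of AOC (A, B and C) and 3 of IEC2 (A, B and C). GEO's design text calls them biological replicates. Of the 19681 genes in the files, 9651 had a level of at least 1 FPKM (fragments per kilobase of transcript relative to all mapped fragments) in at least 3 of the 6 libraries and were tested, 8162 of them with a gene symbol. The IEC2 cells had been plated on Matrigel and kept for 2 days in differentiation medium with CHIR99021, an inhibitor of the kinase GSK3 that turns on WNT signalling, without FGF2 and LIF. BMP4, FGF2 and VEGF were added only after that time. AOC cells carry no day of induction, and the labels give them as a cell line at the final stage. The origin and culture of the AOC line are not given in the sources used here, so effects of the cell type, the line and the culture cannot be told apart.

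Endothelial cells line blood vessels. They seal their contacts with VE-cadherin and PECAM1, keep blood fluid through anticoagulant and fibrinolytic proteins, capture leukocytes with selectins and adhesion molecules, and carry dense fields of membrane pits called caveolae. ETS family transcription factors such as ERG and FLI1 hold this programme in place. Pluripotent cells given a WNT signal leave pluripotency towards primitive streak and mesoderm, and vascular genes come on later. Proliferating pluripotent cells and their early derivatives are known for strong glycolysis and serine synthesis.

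Differences are given as the AOC mean minus the IEC2 mean of log2(FPKM + 1), with the standard error (SE) of the limma fit. A gene was called when its Benjamini-Hochberg adjusted p from limma was under 0.05 and the difference was at least 1 in size. By this rule 1845 genes were higher in AOC (19.1% of those tested) and 2350 were lower (24.3%). The larger side turned after median-of-ratios scaling, with 2213 higher and 1941 lower. With equal totals the lower side stayed larger, at 1530 and 2920. With the stricter limits that the study used for its own lists, p and adjusted p under 0.001 and a difference above 3, 329 genes were higher (3.41%) and 278 were lower (2.88%), together 6.29%. These limits were applied here to differences of log2(FPKM + 1), and with a pseudocount of 0.1 the counts became 679 and 823. An adjusted p under 0.05 alone was met by 71.4% of the genes. All AOC libraries lay above all IEC2 libraries in 32.9% of the genes and below them in 41.8%. The median difference over all genes tested was -0.16, and it became 0.04 after median-of-ratios scaling and -0.39 with library totals made equal without mitochondrial genes. In 647 genes every AOC library reached 1 FPKM and every IEC2 library stayed below it, and in 1064 genes the reverse held. On the log2(FPKM + 1) scale the fold change of a low gene comes out too small. No difference is printed for a gene that every library of a group lists at 0.

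The libraries of a group were alike, with Pearson correlations across genes of 0.986 to 0.990 within AOC, 0.974 to 0.983 within IEC2 and 0.681 to 0.725 between the groups. Summed FPKM was 426839 to 441757 in AOC and 335976 to 352845 in IEC2. The number of reads is not known, but the smallest steps of the values put the depth of the IEC2 libraries at 1.10 to 1.21 times that of AOC A, and of the other AOC libraries at 1.02 and 1.03 times. The mitochondrial genome took 5.65% to 7.05% of the summed FPKM in AOC and 1.95% to 2.19% in IEC2. The difference also moved with the genomic span of the gene, introns included. The 1911 shortest genes (up to 13.3 kb) had a median difference of 0.09 with 27.5% called higher. The 1911 longest genes (from 79.0 kb) had a median of -0.47 with 14% called higher and 32.0% lower. The part of depth, mitochondrial share and gene span in the results that follow was not tested.

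Most tested endothelial markers were higher in AOC. Of 10 listed endothelial markers, 7 were matched by symbol, and their summed FPKM was 260 to 379 in AOC against 2.92 to 5.14 in IEC2, with VWF, CLDN5 and EGFL7 not matched. Of 6 tested, 5 were called higher, and the exception was KDR, which made up most of the IEC2 sum at 2.42 to 3.99 FPKM. The 5 called markers stayed under 1 FPKM in every IEC2 library and passed the filter only through AOC. The filter fixed the direction of their differences, so their calls are no evidence. The day 2 cells could not be placed by the usual markers of where they came from or where they were heading. Of 10 pluripotency markers, 4 were matched and all 4 stayed under 1 FPKM in every library, with a sum of 0.285 to 0.664 in IEC2. POU5F1, SOX2, SALL4, DPPA4, TDGF1 and L1TD1 were not matched. Of 8 matched markers of primitive streak and mesoderm, 7 stayed under 1 FPKM in all IEC2 libraries, and MIXL1 was listed at 0 in all 6 libraries. These low values do not show that the genes were silent. TPI1, an enzyme of glycolysis that every cell uses, was also listed between 0 and 0.0914, and the lysosomal protein gene LAMP1 between 0.0386 and 0.269. The summed FPKM of 4 other marker lists was higher in IEC2, although single markers went both ways. The fibroblast and mural list summed to 85.0 to 115 in IEC2 and 18.3 to 23.7 in AOC, the smooth muscle list to 75.7 to 91.2 and 7.95 to 18.2, the epithelial list to 22.7 to 31.8 and 3.63 to 5.78, and the neural list to 77.4 to 101 and 10.3 to 14 FPKM. Of the tested markers of these lists, 1 fibroblast and mural marker was called higher in AOC and 3 lower, 2 smooth muscle markers higher and 2 lower, 1 epithelial marker higher and 2 lower, and 2 neural markers higher and 4 lower. Nearly all of the smooth muscle sum in IEC2 was ACTG2 alone, at 71.5 to 88 FPKM. Most of the fibroblast and mural sum in IEC2 was COL3A1, at 66.0 to 108 FPKM, and most of the neural sum was SNAP25, at 55.5 to 81.1. KRT8 held a large part of the epithelial sum. These sums thus do not show that the lists as a whole were higher in IEC2. The blood cell list was low in both groups, at 4.54 to 6.18 in AOC and 5.67 to 9.60 in IEC2. In bulk RNA, more cells of a type and more RNA per cell cannot be told apart.

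**Figure D1:**
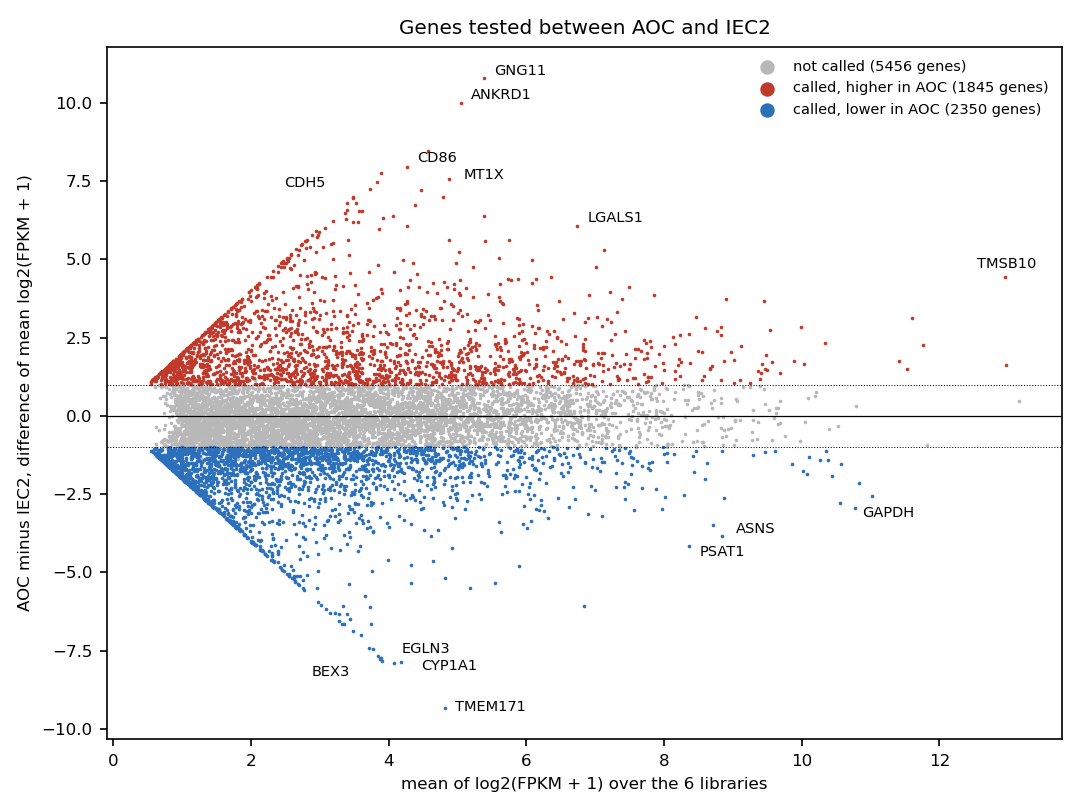
Difference between AOC and IEC2 (difference of mean log2(FPKM + 1), AOC minus IEC2) against the mean log2(FPKM + 1) of the 6 libraries, 1 point per gene tested. Red points are the 1845 genes called higher in AOC, blue points the 2350 called lower, grey points were not called, and dotted lines mark a difference of 1; the points on the slanted edges are genes near 0 in one group.

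The largest differences towards AOC combined endothelial surface proteins with signalling and immune genes. The 15 called genes with the largest positive differences and libraries that did not overlap were GNG11, ANKRD1, CD86, GASK1B, MT1X, ECSCR, LAPTM5, THBS1, CD9, CLEC14A, CDH5, MFNG, GPNMB, NPY and SWAP70. GNG11, which encodes a γ subunit of heterotrimeric G proteins, stood at 1707, 1834 and 1708 FPKM in AOC and was listed at 0 in all 3 IEC2 libraries. GNG11 lies on chromosome 9 at 73721327 to 73726229 of Sscrofa11.1, next to TFPI2 at 73684236 to 73694663. ANKRD1, an ankyrin repeat protein of the nucleus and sarcomere and a target of YAP, was at 1036, 1049 and 1099 FPKM in AOC and at 0, 0.0194 and 0.0919 in IEC2. CD86, a ligand that costimulates T cells, was at 306, 278 and 323 FPKM against 0.191, 0.200 and 0.271, a difference of 7.96 (SE 0.11). The groups of these 3 genes were far apart in every library. All 3 passed the filter only through AOC, which fixed the direction of their differences. The metallothionein gene MT1X was at 422, 389 and 408 FPKM in AOC and 1.93, 1.32 and 0.446 in IEC2. The lysosomal membrane protein gene LAPTM5 reached 130 to 187 FPKM in AOC and 0 to 0.238 in IEC2, and GPNMB, a glycoprotein of lysosomes and the cell surface, reached 94.7 to 121 and was listed at 0 throughout IEC2. NPY, the peptide neuropeptide Y, stood at 90.5 to 119 FPKM in AOC and at most 0.118 in IEC2.

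The largest differences towards IEC2 were of another kind. The 15 genes were TMEM171, BEX3, CYP1A1, EGLN3, GPM6A, HAPLN1, BPIFB1, CFB, KIF5C, TMEM59L, SLC2A5, SCG5, ENO2, TCEAL9 and KLK5. TMEM171, a membrane protein of little known function on chromosome 2 at 82287211 to 82297855, was at 780, 670 and 689 FPKM in IEC2 and at 0, 0 and 0.393 in AOC, a difference of -9.32 (SE 0.15). Several of these genes are known from neurons and neuroendocrine cells: GPM6A, a membrane glycoprotein of axons, the kinesin gene KIF5C, the secretory chaperone gene SCG5 and the neuronal enolase gene ENO2. GPM6A was listed at 0 in all 3 AOC libraries and was at 200, 178 and 240 FPKM in IEC2, so it passed the filter only through IEC2. HAPLN1, which links hyaluronan to proteoglycans, was at 170, 170 and 206 FPKM in IEC2 and at most 0.108 in AOC. BEX3 and TCEAL9 are neighbours on the X chromosome, at 84300645 to 84302124 and 84276985 to 84279377, and belong to 1 family of small proteins. After their values were seen the other matched family members were read as well. BEX1 was at 1.2, 3.53 and 2.38 FPKM in AOC and 87.7, 72.8 and 71.1 in IEC2, and BEX4 was at most 1.02 in AOC and 32.1 to 40.8 in IEC2. Among the tested family members the exception was TCEAL1 at 4.88 to 5.71 FPKM in AOC and 5.48 to 7.29 in IEC2. Kallikrein genes were read in the same way because of KLK5, which was at 73.4 to 96.1 FPKM in IEC2 and at most 0.165 in AOC. KLK4, KLK15 and KLK1 were also under 1 FPKM in all AOC libraries and passed the filter only through IEC2. The filter thus fixed the direction of their differences, and their lower calls are no evidence. Of the 13 matched kallikreins, 8 stayed under 1 FPKM in all 6 libraries.

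**Figure D2:**
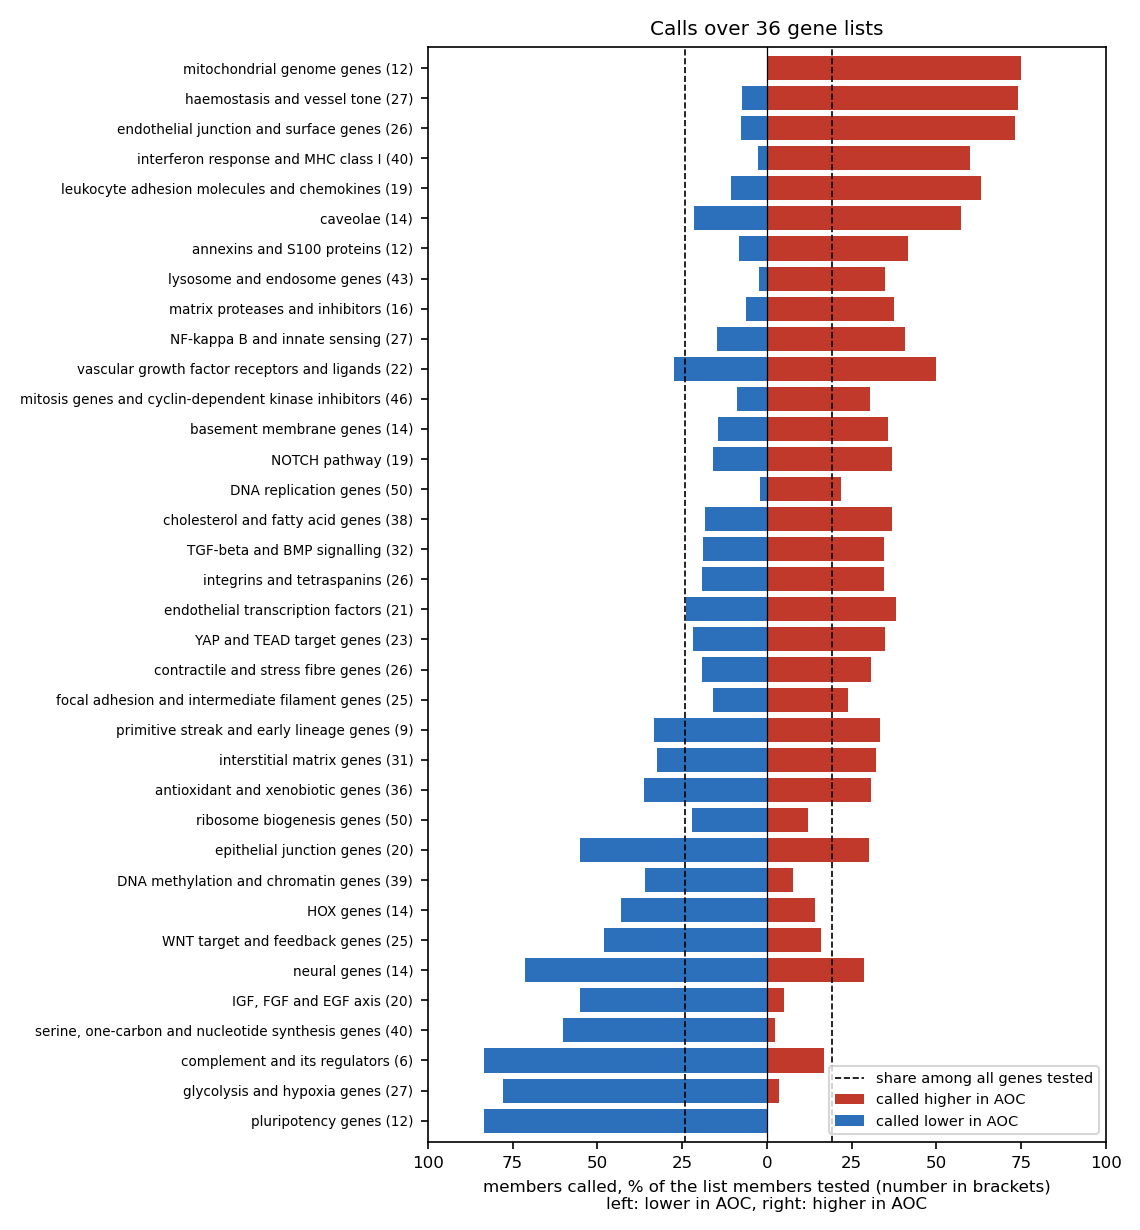
Share of the tested members of each of 36 gene lists that was called higher in AOC (red, to the right) or lower (blue, to the left), in percent, with the number tested in brackets. Dashed lines mark the shares among all 9651 genes tested, 19.1% higher and 24.3% lower. Mitochondrial genome, haemostasis, endothelial surface, leukocyte adhesion and interferon genes stand far to the right. Pluripotency, complement, glycolysis and neural genes stand far to the left.

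The functions were then read list by list, beside 19.1% of all tested genes called higher and 24.3% called lower. A member that passed the filter only through the group where it was high had to differ, so the counts describe the lists and are no evidence for them. The lists were written with earlier results of these data known.

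Most tested endothelial junction and surface genes were higher in AOC. Of 40 listed genes, 31 were matched and 26 tested, of which 19 were called higher, 2 lower and 5 were not called. Their median difference was 2.67 against -0.16 over all genes. CDH5, the VE-cadherin of endothelial contacts, on chromosome 6 at 27108560 to 27142145, was at 137, 134 and 103 FPKM in AOC and listed at 0 in every IEC2 library. PECAM1, the CD31 antigen, was at 119, 131 and 91.7 FPKM in AOC and 0.268, 0.284 and 0.157 in IEC2, a difference of 6.53 (SE 0.16). ECSCR, a surface regulator of endothelial migration, was at 192, 173 and 198 FPKM against 0, 0 and 0.211. The lectin-like receptor CLEC14A was at 97.0 to 146 FPKM in AOC and listed at 0 in IEC2, as were EMCN (23.0 to 36.3), TM4SF18 (39.0 to 48.1), CD93 (8.34 to 19.4) and ROBO4 (1.85 to 2.02). ESAM, an adhesion molecule of endothelial tight junctions, was higher by 5.5 (SE 0.27), and CD34 by 4.74 (SE 0.24). RAMP2, the subunit that turns CALCRL into an adrenomedullin receptor, was at 42.4, 66.8 and 60.4 FPKM in AOC and 0, 0.247 and 0 in IEC2. CALCRL itself overlapped between the groups, at 8.02 to 22.0 FPKM in AOC and 13 to 15.2 in IEC2, and so did the ligand gene ADM at 83.5 to 129 and 70.2 to 165.

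Not all classical endothelial receptors followed. KDR, the main VEGF receptor, was at 1.32, 1.31 and 1.46 FPKM in AOC and 2.45, 3.99 and 2.42 in IEC2, a difference of -0.72 (SE 0.18) that was not called, though it was with a pseudocount of 0.1 (-1.02). ENG, the coreceptor endoglin, was at 1.23, 1.02 and 0.361 FPKM in AOC and 1.58, 3.58 and 2.46 in IEC2, a difference of -0.91 (SE 0.26) that became -1.05 without AOC replicate A and -1.12 without IEC2 replicate A and was then called. ENG was also called with a pseudocount of 0.1 (-1.51) and with equal totals (-1.07). For both genes all AOC libraries lay below all IEC2 libraries. The junction genes JAM2 and PALMD were the 2 members called lower. JAM2 was at 0.172 to 0.262 FPKM in AOC and 1.27 to 1.86 in IEC2. TIE1 and PLVAP stayed under 1 FPKM in AOC, at 0.368 to 0.809 and 0.221 to 0.731, and were not tested.

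Among 21 tested transcription factors of the endothelial list, 8 were called higher, 5 lower and 8 were not called (40 listed, 34 matched). FLI1 was at 56.1, 50.7 and 55.1 FPKM in AOC and listed at 0 in IEC2. ERG was at 29.7, 27.1 and 18.7 FPKM against 0.0255, 0.058 and 0.118, a difference of 4.59 (SE 0.20). HEY2, a NOTCH target of arterial cells, rose by 3.92 (SE 0.16). BCL6B was at 6.40 to 11.4 FPKM in AOC and listed at 0 in IEC2. LYL1 was at 1.80 to 2.93 FPKM in AOC and listed at 0 in IEC2, and GATA2 was at 1.76 to 2.11 and at most 0.0176. Of the members called lower in AOC, MEIS2 was at 1.92 to 4.51 FPKM in AOC and 26.6 to 31.3 in IEC2, PRRX1 at 0.961 to 1.29 and 15 to 17, and SNAI2, a repressor of E-cadherin, at 0.143 to 0.268 and 3.63 to 4.67. MEF2C fell by 2.60 (SE 0.17) and NR2F2, a factor of venous identity, differed by -1.55 (SE 0.19). KLF2 and SOX18 did not reach 1 FPKM in any AOC library.

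Vascular growth factors and their receptors went both ways, with 11 of 22 tested genes called higher and 6 called lower. CXCR4, the receptor of the chemokine CXCL12, was at 56.1, 76.0 and 58.3 FPKM in AOC and 1.09, 0.579 and 0.762 in IEC2, a difference of 5.15 (SE 0.17). ANGPT2, which endothelial cells release to act on their own TEK receptor, was at 27.4, 43.7 and 26.2 FPKM against 0.239, 0 and 0.288. TEK was at 3.26, 8.34 and 5.26 FPKM against 0.0358, 0.358 and 0.189. PDGFD was higher by 4.06 (SE 0.23), MET by 2.75 (SE 0.17), VEGFC by 2.67 (SE 0.17) and AXL by 2.2 (SE 0.18). Other ligands were called lower. VEGFA was at 0.254, 0.237 and 0.346 FPKM in AOC and 3.02, 4.24 and 4.30 in IEC2, and ANGPT1 was at most 0.0722 in AOC and 1.14 to 1.69 in IEC2. PDGFRA, a receptor of mesenchymal cells, was at most 0.1 FPKM in AOC and 3.62 to 5.13 in IEC2. ANGPTL4 fell by 1.89 (SE 0.37), from 59.8, 94.9 and 166 FPKM in IEC2 to 24.9, 36.9 and 18.6 in AOC.

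Genes of haemostasis and vessel tone were mostly higher in AOC, with 20 of 27 tested genes called higher, 2 lower and a median difference of 2.60 (38 listed, 37 matched). Both inhibitors of the tissue factor pathway were among them. TFPI was at 36.8, 51.4 and 58.5 FPKM in AOC and listed at 0 in IEC2, and TFPI2 was at 130, 136 and 138 FPKM against 0.730, 1.18 and 0.295. PROCR, the endothelial receptor of protein C, was at 29.2, 24.2 and 19.3 FPKM against 0, 0.00955 and 0. The prostacyclin synthase gene PTGIS was at 15.2 to 20.0 FPKM in AOC and listed at 0 in IEC2. PLAU, a plasminogen activator, was higher by 4.10 (SE 0.12), while PLAT, the other plasminogen activator, overlapped at 15.1 to 35.3 FPKM in AOC and 23.0 to 42.6 in IEC2. The cofactor genes F5 (9.71 to 12.9 FPKM in AOC, listed at 0 in IEC2) and F8 (5.23 to 8.92 and 5.01 to 6.44) differed in that the second was not called. THBS1, a matricellular glycoprotein also held in platelets, was at 229, 268 and 320 FPKM in AOC and 1.31, 0.505 and 0.745 in IEC2.

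On the side of vessel tone, EDN1, the precursor of the constrictor endothelin, was at 20.7, 25.3 and 23.5 FPKM in AOC and 1.77, 1.25 and 1.17 in IEC2, a difference of 3.34 (SE 0.16). NOS3, the endothelial nitric oxide synthase, was low in AOC at 3.41, 4.22 and 3.11 FPKM and lower in IEC2 at 0.612, 0.561 and 0.349, a difference of 1.60 (SE 0.16). GUCY1B1, a subunit of the receptor for nitric oxide, was higher by 3.03 (SE 0.13). EDNRB, the endothelin receptor, went against the list. EDNRB was listed at 0 in every AOC library and stood at 5.37, 4.41 and 3.66 FPKM in IEC2. The protease gene ADAMTS1 was the other member called lower, at 0.185 to 0.827 FPKM in AOC and 1.37 to 4.02 in IEC2. The cyclooxygenase gene PTGS2 overlapped, at 6.14 to 9.69 and 3.33 to 12.3 FPKM.

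**Figure D3:**
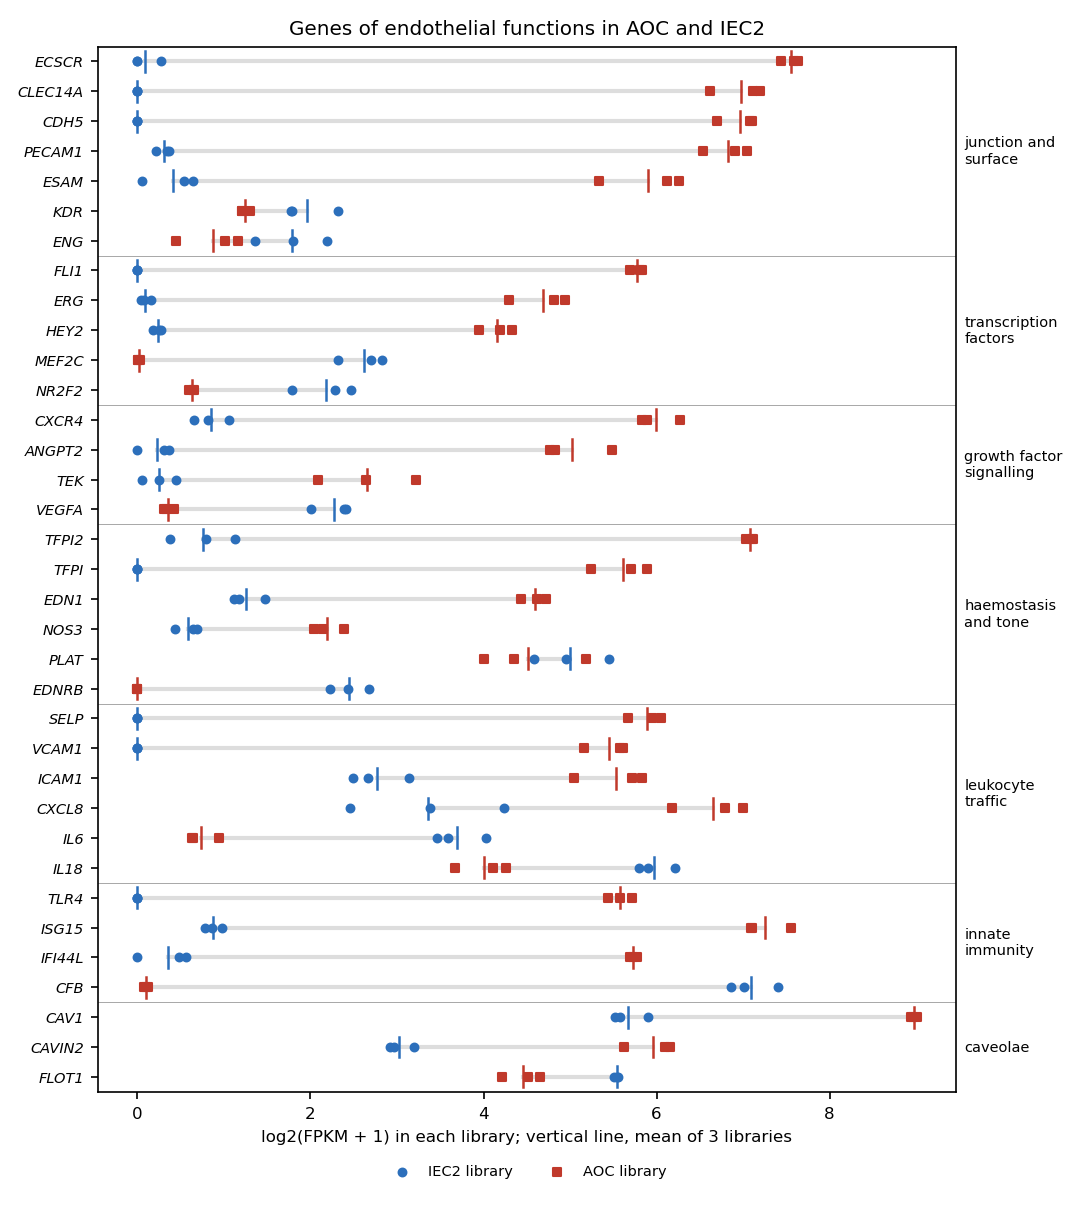
Level of 35 genes of endothelial functions as log2(FPKM + 1) in each AOC library (red squares) and each IEC2 library (blue circles), with vertical lines at the means of 3 libraries and grey bars joining them. Most genes lie near 0 in IEC2 and between 4 and 9 in AOC, whereas KDR, ENG and PLAT lie close together and MEF2C, NR2F2, VEGFA, EDNRB, IL6, IL18, CFB and FLOT1 lie higher in IEC2.

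Molecules for the capture of leukocytes were largely an AOC trait. Of 19 tested adhesion molecules, chemokines and cytokines, 12 were called higher and 2 lower, with a median difference of 1.68 (38 listed, 30 matched). SELP, the P-selectin of endothelial storage granules, was at 65.2, 60.9 and 50.0 FPKM in AOC and listed at 0 in all IEC2 libraries. VCAM1 was at 47.9, 46.9 and 34.8 FPKM and also listed at 0 in IEC2. ICAM1 was present in both, at 51.6, 55.8 and 32.1 FPKM against 4.64, 5.34 and 7.81. CXCL8, which draws neutrophils, was at 110, 71.3 and 127 FPKM against 17.9, 4.51 and 9.44, a difference of 3.29 (SE 0.42). CCL2, which draws monocytes, was at 578, 504 and 719 FPKM in AOC and at 335, 136 and 138 in IEC2, so the day 2 cells also held it at a high level. IL7 was at 30.2 to 33.3 FPKM in AOC and at most 0.0552 in IEC2, and IL15 at 6.03 to 7.16 and listed at 0. The cytokines IL6 and IL18 were the exceptions. IL6 was at 0.562, 0.549 and 0.928 FPKM in AOC and 11, 9.99 and 15.3 in IEC2, and IL18 at 11.8 to 18.1 and 54.5 to 73.1. CD44, ALCAM and CD47, adhesion proteins found on many cell types, were at similar levels in both groups, with differences of 0.24, -0.00 and -0.19.

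Several innate sensors were higher in AOC, while subunits of NF-κB were not. Of 27 tested genes of NF-κB and innate sensing, 11 were called higher, 4 lower and 12 were not called. TLR4, the sensor of bacterial lipopolysaccharide, was at 46.9, 51.6 and 42.3 FPKM in AOC and listed at 0 in IEC2. CD14, its coreceptor, was at 1.14 to 1.55 FPKM against at most 0.0348. TLR3, a sensor of double-stranded RNA, was higher by 2.54 (SE 0.16) and MALT1, a protease of NF-κB signalling, by 3.09 (SE 0.16). NFKBIA, the inhibitor that NF-κB itself induces, was at 78.0, 56.0 and 50.1 FPKM against 6.28, 4.93 and 4.63. RELA and NFKB2, subunits of the factor, were low and called lower in AOC, RELA at 0.980, 1.01 and 0.992 FPKM against 2.42, 3.79 and 3.49. Both calls were lost without IEC2 replicate B, at -0.97 for RELA and -0.95 for NFKB2. NFKB1 and REL were not called, with differences of 0.07 and -0.32. The split moved with the scaling. After median-of-ratios scaling 11 members were called higher and 1 lower.

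Interferon response and MHC class I genes were called higher in 24 of 40 tested members and lower in 1, with a median of 1.28 (72 listed, 55 matched). ISG15, a ubiquitin-like modifier, was at 135, 136 and 186 FPKM in AOC and 0.966, 0.813 and 0.724 in IEC2, a difference of 6.38 (SE 0.16). IFI44L was at 50.6, 53.8 and 52.0 FPKM against 0, 0.397 and 0.482, and IFIT1, which binds viral RNA, at 32.2, 31.0 and 25.8 against 0, 0.306 and 0.163. IFI6 was higher by 4.47 (SE 0.15), BST2 by 4.27 (SE 0.20), ISG20 by 4.07 (SE 0.27) and the immunoproteasome subunit gene PSMB9 by 3.40 (SE 0.14). The regulator IRF1 rose by 2.27 (SE 0.30). MX1 overlapped at 11.3 to 16.5 and 14.2 to 14.9 FPKM, and the peptide transporter genes TAP1 and TAP2 overlapped as well. GBP2, a guanylate-binding protein, was the member called lower, at 1.07 to 1.78 FPKM in AOC and 9.54 to 16.7 in IEC2.

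Complement genes ran the other way. Of 6 tested, 5 were called lower and 1 higher. CFB, the factor B of the alternative pathway, on chromosome 7 at 24034077 to 24040523, was at 128, 116 and 168 FPKM in IEC2 and at 0.0528, 0.0861 and 0.0683 in AOC, a difference of -7.0 (SE 0.16). CFI, the protease that inactivates C3b and C4b, was at 17.9 to 19.0 FPKM in IEC2 and at most 0.439 in AOC. SERPING1, the C1 inhibitor, differed by -2.2 (SE 0.20), and CLU, clusterin, by -1.21 (SE 0.15), a call that was lost after median-of-ratios scaling (-0.97). CFD, the protease that cleaves factor B, was on the opposite side of its substrate, at 15.4, 33.3 and 20.9 FPKM in AOC and 0, 0.248 and 0 in IEC2.

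Caveolae are formed by caveolins and cavins. CAV1 was at 513, 490 and 499 FPKM in AOC and 58.7, 46.7 and 44.8 in IEC2, a difference of 3.31 (SE 0.12), and CAV2 was higher by 3.67 (SE 0.13). CAVIN2 was at 70.3, 67.4 and 48.5 FPKM against 6.56, 6.80 and 8.15, and CAVIN3 at 12.0 to 17.1 against 0.226 to 0.643. CAVIN1 was low in both groups, at 1.31 to 2.71 and 0.262 to 0.498 FPKM. In all, 8 of 14 tested genes were called higher. The 3 called lower were FLOT1 and FLOT2, which mark membrane domains other than caveolae, and MYOF, a membrane repair protein that fell by 1.75 (SE 0.12). Its relative DYSF was at 4.03 to 5.53 FPKM in AOC and at most 0.0205 in IEC2. With median-of-ratios scaling the 3 lower calls became 1, and without AOC replicate C they also became 1, with FLOT1 at -0.96 and FLOT2 at -0.93. The FLOT2 call was lost as well without IEC2 replicate B (-1.10) or C (-0.92).

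Annexins and S100 proteins bind calcium and, in part, membranes. ANXA2, which forms a fibrinolytic complex with S100A10 on endothelial surfaces, was at 1627, 1860 and 1725 FPKM in AOC and 169, 109 and 120 in IEC2, a difference of 3.72 (SE 0.16), and S100A10 rose by 2.99 (SE 0.24). ANXA5 was at 1097 to 1127 FPKM against 149 to 184, and S100A6 at 258, 590 and 349 against 13.2, 10.8 and 9.53. S100A5 was at 60.9 to 72.6 FPKM in AOC and at most 0.103 in IEC2. ANXA6 went the other way, at 23.0, 23.7 and 12.0 FPKM in AOC and 98.2, 83.3 and 98.7 in IEC2. Of 12 tested annexins and S100 genes 5 were called higher and 1 lower, and ANXA1, ANXA4, ANXA7 and ANXA11 were not called. The galectin LGALS1, chosen after its values were seen, was at 803, 846 and 971 FPKM against 14, 12.1 and 10.6, a difference of 6.05 (SE 0.13). TMSB10, an actin-binding thymosin that held the highest value of every AOC library, was at 35131, 37311 and 37567 FPKM in AOC and higher than in IEC2 by 4.42 (SE 0.19).

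Lysosomal genes were called higher in 15 of 43 tested members and lower in 1, MAN2B1. The cysteine proteases CTSC and CTSS were low in IEC2. CTSC was at 62.3, 73.9 and 48.6 FPKM in AOC and 0.232, 0.935 and 0.0383 in IEC2, and CTSS was higher by 3.96 (SE 0.17). CTSB was at 1152, 1510 and 670 FPKM against 99.5, 114 and 144, LGMN at 222, 262 and 211 against 23.6, 19.6 and 21.2, and GLB1, the β-galactosidase, at 179, 209 and 133 against 17.8, 17.0 and 21.9. The autophagosome protein gene MAP1LC3B rose by 3.92 (SE 0.11).

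Of 26 tested contractile genes, 8 were called higher (30.8% against 19.1% of all genes) and 5 lower (19.2% against 24.3%) with a median of 0.04, and with totals made equal the counts turned to 6 and 8. Their summed FPKM was 2552 to 3043 in AOC and 1522 to 1563 in IEC2. PDLIM1, an actin-linked adaptor, was at 965, 815 and 839 FPKM in AOC and 18.2, 34.4 and 15.2 in IEC2. Among the tropomyosins, TPM1 was at 370, 303 and 288 FPKM in AOC and 23.6 to 24.1 in IEC2, TPM2 at 0.787, 0.812 and 0.575 in AOC and 96.3, 82.1 and 95.4 in IEC2, and TPM4 at 696 to 814 and 766 to 812. So TPM1 rose by 3.68 (SE 0.11), TPM2 fell by 5.74 (SE 0.13) and TPM4 was level. The smooth muscle actins split in the same way. ACTA2 was at 12.8, 5.03 and 4.65 FPKM in AOC and at most 0.146 in IEC2, whereas ACTG2 was at most 0.07 in AOC and 88.0, 71.5 and 87.4 in IEC2. CALD1 rose by 3.54 (SE 0.14). Of 25 tested focal adhesion and intermediate filament genes, 6 were called higher (24% against 19.1% of all genes) and 4 lower (16% against 24.3%). With equal totals the counts were 6 and 7. FERMT1, an activator of integrins, was at 51.3 to 52.3 FPKM in AOC and 0.696 to 1.75 in IEC2. KRT8, a keratin of simple epithelia, was at most 0.0106 FPKM in AOC and 12.9 to 20.2 in IEC2, and VIM, the intermediate filament of mesenchyme and endothelium, was at 647 to 855 and 393 to 426 with a difference of 0.91 (SE 0.13) that rose to 1.04 without AOC replicate C.

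Interstitial matrix genes were called higher in 10 and lower in 10 of 31 tested. COL1A2 was at 15.5, 13.2 and 13.1 FPKM in AOC and 0.115, 0 and 0.0597 in IEC2. COL3A1 was at 6.37, 5.82 and 4.49 FPKM in AOC and 66.0, 106 and 108 in IEC2. COL11A1 was listed at 0 in AOC and was at 7.25 to 7.80 FPKM in IEC2. The fibulins divided too. FBLN5, an elastic fibre protein of vessel walls, was at 79.0, 131 and 52.5 FPKM in AOC against 2.45, 2.19 and 2.67, and FBLN2 was at most 0.0289 against 23.1, 28.4 and 34.2. SPP1, osteopontin, was at 200, 153 and 287 FPKM against 2.79, 3.19 and 3.62, and FN1, fibronectin, rose by 2.48 (SE 0.13). DCN, decorin, was at 13.5 FPKM in IEC2 replicate A and 2.46 and 2.73 in the others, against at most 0.168 in AOC. Its difference of -2.39 (SE 0.49) became -1.72 without IEC2 replicate A, still past the limits. P4HA1, a collagen prolyl hydroxylase, fell by 2.96 (SE 0.16), and the crosslinking enzyme gene LOX rose by 2.81 (SE 0.14). Of 14 tested basement membrane genes 5 were called higher and 2 lower, with a median of 0.63. The laminin chain genes LAMB1, LAMA4 and LAMA1 were among the higher ones, with differences of 3.30, 2.64 and 2.04, and NID2, which ties laminin to collagen IV, rose by 4.15 (SE 0.19) while NID1 did not pass (0.08). GPC3, a heparan sulphate proteoglycan of embryonic tissue, was listed at 0 in AOC and was at 12.6, 7.75 and 10.9 FPKM in IEC2.

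Among integrins and tetraspanins 9 of 26 tested genes were called higher and 5 lower. CD9 was at 308, 351 and 276 FPKM in AOC and 3.49, 0.759 and 0.856 in IEC2, and TSPAN15 was higher by 4.82 (SE 0.20). ITGA5, the fibronectin receptor chain, was higher by 1.96 (SE 0.19) and ITGB5 by 2.74 (SE 0.15), while ITGB1, the common β chain, overlapped at 293 to 412 and 378 to 505 FPKM. TSPAN13 was at 83.9 to 109 FPKM in AOC and 405 to 493 in IEC2. Among matrix proteases and inhibitors 6 of 16 tested were called higher and only TIMP1 lower, at 74.9 to 77.6 FPKM in AOC and 175 to 239 in IEC2.

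In TGF-β and BMP signalling, the pathway that the study followed, 11 of 32 tested genes were called higher and 6 lower, with a median of 0.03. None of the 5 tested receptor and common SMAD transducers was called. SMAD2 was at 6.23, 6.56 and 7.41 FPKM in AOC and 6.73, 6.88 and 7.77 in IEC2, a difference of -0.07 (SE 0.14). SMAD3 was at 2.45, 3 and 2.39 FPKM against 4.74, 4.57 and 3.73, and although all AOC libraries lay below all IEC2 libraries its difference of -0.56 (SE 0.16) did not reach the limit. SMAD4, the common partner, had a difference of -0.74 (SE 0.16), again with no overlap, and SMAD1 and SMAD5 had differences of -0.02 and -0.20. TGFB1 stayed under 1 FPKM in all 6 libraries and was not tested. In the study's Western blot, TGF-β1 protein was highest on day 2 of induction, while its secretion was low at the early stage. The study followed SMAD2 and SMAD3 by protein and phosphorylation, which RNA levels do not show. TGFBR1 and TGFBR2, the receptors, had differences of 0.08 each. Among ligands, antagonists, targets and other receptors several genes were called. FST, follistatin, which binds activin, was at 126, 104 and 102 FPKM in AOC and 2.52, 2.5 and 3.25 in IEC2. BMPER, a modulator of BMP in endothelium, was at 52.1, 49.8 and 38.4 FPKM against 0.211, 0.611 and 0.0354. ID3, a BMP target, was at 643, 758 and 613 FPKM against 34.8, 15.7 and 24.9, a difference of 4.75 (SE 0.25). BMP4 rose by 2.29 (SE 0.12), TGFB2 by 2.43 (SE 0.15), and the endothelial receptor gene ACVRL1 was at 1.24 to 1.83 FPKM in AOC and listed at 0 in IEC2. ACVR1, another type I receptor, was at 1.89, 2.35 and 2.10 FPKM in AOC and 26.5, 30.0 and 34.9 in IEC2, and BMPR1B was listed at 0 in AOC and at 1.18 to 2.82 in IEC2. FSTL1 fell by 2.65 (SE 0.15), TGIF2 fell by 3.12 (SE 0.29) and BAMBI fell by 1.65 (SE 0.13).

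In the NOTCH pathway 7 of 19 tested genes were called higher and 3 lower. MFNG, which adds sugars to NOTCH receptors, was at 144, 143 and 82.9 FPKM in AOC and 0.056, 0 and 0.241 in IEC2, and HES6 rose by 3.33 (SE 0.32). The ligand gene JAG1 was at 0.336 to 0.532 FPKM in AOC and 2.17 to 2.96 in IEC2. Targets of YAP and TEAD were called higher in 8 and lower in 5 of 23 tested, which became 9 and 3 after median-of-ratios scaling and 7 and 6 with equal totals. CCN2 was at 227, 310 and 255 FPKM in AOC against 137, 102 and 114, and its relative CCN1 at 9.86, 13.2 and 13.3 against 40.0, 26.3 and 34.1, so the pair split, although the call of CCN2 was lost with equal totals (0.89). YAP1 itself was at 18.5 to 20.1 and 16.8 to 20.1 FPKM.

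The pluripotency genes that could be tested were mostly higher in the day 2 cells. Of 50 listed genes, 34 were matched but only 12 reached the filter, and 10 of these were called lower in AOC and none higher (12 tested, median -2.43). ETV5, an ETS factor downstream of FGF, was at 60.2, 68.5 and 75.8 FPKM in IEC2 and 0.575, 0.809 and 0.607 in AOC, a difference of -5.38 (SE 0.14). OTX2, a factor of primed pluripotency and head ectoderm, was at 13.7, 14.4 and 11.3 FPKM in IEC2 and listed at 0 in AOC. ZIC2 was at 3.32 to 6.11 FPKM in IEC2 and also listed at 0 in AOC. ALPL, the alkaline phosphatase used to stain stem cell colonies, was at 12.7 to 19.6 FPKM against at most 0.0272. Of 9 tested genes of the primitive streak and early lineages, 3 were called higher and 3 lower. MESP2, a factor of early mesoderm, was higher in AOC than at day 2, at 3.02, 3.49 and 2.95 FPKM against 0.087, 0.099 and 0.281. MESP1 stayed under 1 FPKM in all 6 libraries. HAND2 was at 33.8 to 45.4 FPKM in AOC and 3.42 to 6.52 in IEC2, while ISL1, of cardiac and neural progenitors, was listed at 0 in AOC and at 3.27 to 4.95 in IEC2.

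WNT genes were called lower in AOC in 12 of 25 tested and higher in 4. SFRP2, a secreted WNT antagonist, was at 41.7, 82.0 and 77.3 FPKM in IEC2 and listed at 0 in AOC. LGR5, a receptor of R-spondins and a WNT target, was at 9.19, 13.9 and 16.9 FPKM in IEC2 and at most 0.00873 in AOC. The nuclear effectors LEF1 and TCF7L2 were at 6.60 to 11.8 and 12.5 to 18.3 FPKM in IEC2 and at most 0.00653 and 0.803 in AOC. WLS, which carries WNT proteins out of the cell, fell by 2.99 (SE 0.10) in AOC, and the receptor gene FZD3 fell by 2.66 (SE 0.15). CTNNB1, β-catenin, was not called, at 80.5 to 125 FPKM in AOC and 74.5 to 90.7 in IEC2. The 4 genes called higher in AOC were DKK3, the antagonist gene WIF1 and a pair of growth genes that WNT can induce. MYC was at 80.8, 55.4 and 47.2 FPKM in AOC and 0, 0 and 0.131 in IEC2, and CCND1, cyclin D1, at 81.5, 117 and 106 against 0.246, 0.183 and 0.765. WIF1 was at 48.4 to 53.6 FPKM in AOC and 0.498 to 0.855 in IEC2.

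The IGF, FGF and EGF list was called lower in 11 of 20 tested genes and higher in 1. IGFBP2 was at 36, 44.3 and 43.2 FPKM in IEC2 and listed at 0 in AOC. FGFR2 was at 4.51, 4.53 and 5.12 FPKM in IEC2 and at most 0.0421 in AOC. Among the list's feedback inhibitors of FGF and ERK signalling, DUSP4, DUSP6, SPRY2, SPRY4 and SPRED2 were called lower. DUSP4 was at 44.3, 60.2 and 51.0 FPKM in IEC2 against 1.15, 1.84 and 1.96, DUSP6 at 51.1, 51.8 and 63.7 against 9.48, 8.73 and 6.76, and SPRY4 at 8.05, 11.5 and 12.6 against 0.266, 0.260 and 0.144. SPRY1 and SPRED1 were not called, with differences of 0.12 and -0.64, and neither was DUSP5, likewise outside the list and chosen after its values were seen, at 0.44. FGF2, which the day 2 medium lacked, overlapped at 4.76 to 8.10 and 2.81 to 5.91 FPKM. AREG, a ligand of the EGF receptor, was the 1 gene called higher, by 1.98 (SE 0.25).

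Genes of cell contacts went both ways. Of 20 tested genes of the epithelial junction list, which also holds other cadherins, 11 were called lower in AOC and 6 higher. CDH2, N-cadherin, was at 15.3, 17.3 and 24.8 FPKM in IEC2 and at most 0.0165 in AOC, and CDH11 at 23.0, 22.3 and 32.6 against at most 0.0902. CLDN6, a claudin of embryonic epithelia, was at 130, 86.9 and 97.2 FPKM in IEC2 and 2.15, 4.05 and 2.64 in AOC. ESRP1, a splicing factor of epithelia, and the desmosomal cadherin DSG2 were at 8.83 to 11.3 and 7.6 to 14 FPKM in IEC2 and at most 0.0193 and 0 in AOC. On the AOC side stood CDH13, T-cadherin of vessels, at 50.9, 57.9 and 35.5 FPKM against 0, 0 and 0.00596, and OCLN, occludin, at 13.7 to 14.3 against 1.01 to 1.63. SPINT2, a protease inhibitor of epithelia, was at 14.7 to 17.6 FPKM in AOC and listed at 0 in IEC2.

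All 14 tested neural genes were called, 10 lower in AOC and 4 higher, while the sums over the whole list were alike at 174 to 185 FPKM in AOC and 172 to 184 in IEC2. SNAP25, a protein of synaptic vesicle fusion, was at 55.5, 80.9 and 81.1 FPKM in IEC2 and listed at 0 in AOC. CRABP2, a retinoic acid carrier of embryonic tissues, was at 36.2, 33.2 and 24.4 FPKM in IEC2 and 2.88, 0.631 and 0.917 in AOC. STMN2 was at 7.67 to 13 FPKM in IEC2 and 0.185 to 0.466 in AOC, but STMN1, its widely expressed relative, was at 19.9 to 28.1 in IEC2 and 149 to 163 in AOC. TUBB3, a neuronal tubulin, was higher in AOC by 2.87 (SE 0.17). Of 14 tested HOX genes, 6 were called lower and 2 higher. HOXD8 was at 38.4, 27.7 and 29.6 FPKM in IEC2 and 3.99, 2.07 and 2.93 in AOC, and HOXD11 at 13.5 to 15.7 against 1.48 to 1.89. HOXB5 and HOXA5 were the ones called higher, by 1.28 and 1.23.

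Among metabolic lists, glycolysis and serine synthesis genes were mostly called lower in AOC, while cholesterol and antioxidant genes went both ways. Of 27 tested genes of glycolysis and the hypoxia response, 21 were called lower in AOC, 1 higher and 5 were not called, with a median of -2.01 (36 listed, 31 matched). GAPDH was at 694, 608 and 596 FPKM in AOC and 5246, 4935 and 4334 in IEC2, a difference of -2.93 (SE 0.12). ENO1 was at 634, 622 and 477 FPKM against 3984, 3822 and 4014, ALDOA at 152, 126 and 102 against 1519, 1418 and 1271, and LDHA at 939, 816 and 936 against 3157, 2395 and 2264. No AOC library reached the lowest IEC2 library in these 4 genes. Other enzymes of the chain were called lower too, with differences of -1.98 for HK2, -2.12 for GPI, -2.90 for PFKL, -1.55 for PGK1, -2.63 for PGAM1 and -2.01 for PKM. The isoforms HK1 and LDHB were not called, at -0.79 and -0.51, although HK1 was called without IEC2 replicate A (-1.05). ENO2, on chromosome 5 at 63799927 to 63809067, was at 76.4, 97.6 and 108 FPKM in IEC2 and listed at 0 in AOC. SLC2A5, the fructose transporter, was at 109, 79.8 and 112 FPKM in IEC2 and likewise listed at 0. Of the 4 tested genes of its family, read after the values were seen, SLC2A5 and SLC2A12 were called lower and SLC2A8 and SLC2A13 higher.

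EGLN3, an oxygen-sensing prolyl hydroxylase that hypoxia induces, was at 227, 195 and 222 FPKM in IEC2 and 0, 0.0378 and 0 in AOC. PDK1, a pyruvate dehydrogenase kinase, fell by 2.53 (SE 0.15) and NDRG1 fell by 2.01 (SE 0.15). HIF1A, the factor that drives this response, was the 1 member called higher in AOC, at 84.2, 143 and 131 FPKM against 29.2, 29.9 and 32.4. TXNIP, a brake on glucose uptake, was at 14.6, 15.2 and 9.22 FPKM in AOC and 143, 224 and 177 in IEC2.

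**Figure D4:**
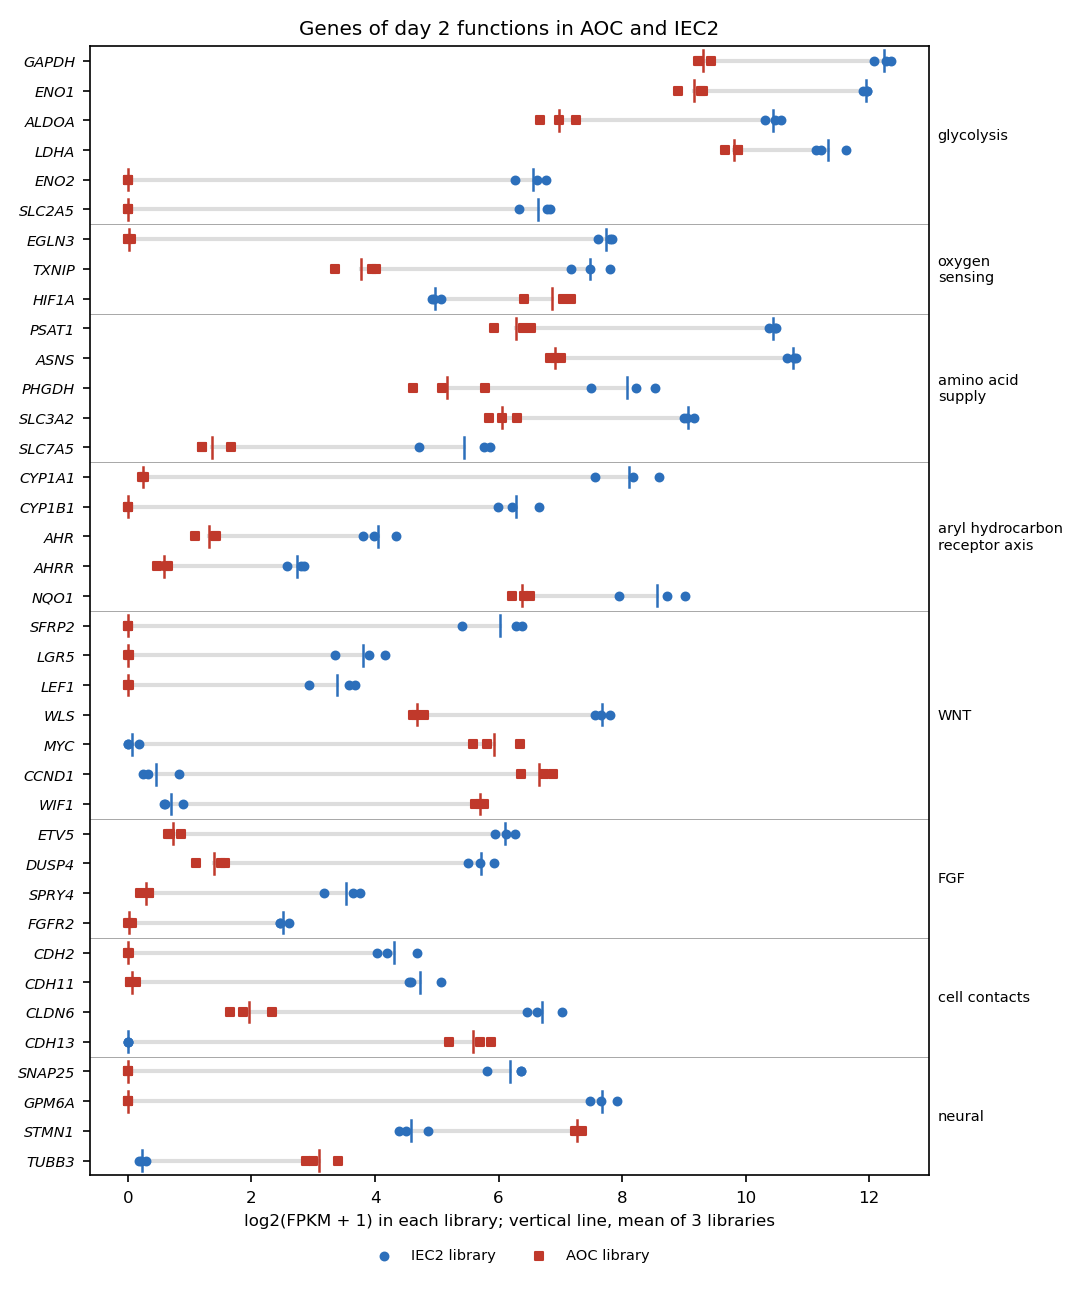
Level of 38 genes of metabolism, signalling, cell contacts and neural functions as log2(FPKM + 1) in each AOC library (red squares) and each IEC2 library (blue circles), with vertical lines at the means of 3 libraries and grey bars joining them. Glycolysis, amino acid and aryl hydrocarbon receptor genes lie higher in all IEC2 libraries, while HIF1A, MYC, CCND1, WIF1, CDH13, STMN1 and TUBB3 lie higher in all AOC libraries.

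Serine, one-carbon and nucleotide synthesis genes were called lower in 24 of 40 tested and higher in 1, with a median of -1.23 (50 listed, 44 matched). PSAT1, the aminotransferase of serine synthesis, was at 83.2, 59.5 and 90.7 FPKM in AOC and 1328, 1419 and 1440 in IEC2, a difference of -4.17 (SE 0.16). PHGDH, its first enzyme, was at 32.8, 54.0 and 23.6 FPKM against 180, 299 and 369. ASNS, asparagine synthetase, was at 128, 113 and 120 FPKM against 1812, 1768 and 1636. The amino acid transporter formed by SLC7A5 and SLC3A2 was lower in both parts, SLC7A5 at 2.19, 1.30 and 1.29 FPKM against 25.2, 53.1 and 57.5 and SLC3A2 at 56.4, 77.5 and 65.2 against 513, 530 and 573. The purine enzyme genes GART, ADSL and PAICS were called lower, with differences of -2.85, -1.78 and -1.42, while ADSS2, a purine enzyme outside the list and chosen after its values were seen, was called higher at 1.74. PRPS1 and TYMS were not called, with differences of 0.12 and 0.59. MAT2B was the gene called higher, just past the limit of 1 (SE 0.11). That call was lost when totals were made equal or when AOC replicate A or IEC2 replicate C was left out.

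Among antioxidant and xenobiotic genes 11 of 36 tested were called higher and 13 lower, with members of different kinds on both sides. CYP1A1, a monooxygenase and the best known target of the aryl hydrocarbon receptor, on chromosome 7 at 58802887 to 58809155, was at 188, 288 and 385 FPKM in IEC2 and 0.169, 0.178 and 0.197 in AOC. CYP1B1 was at 73.5, 62.5 and 100 FPKM in IEC2 and listed at 0 in AOC, the receptor gene AHR was at 14.9, 19.4 and 13.1 against 1.12, 1.65 and 1.70, and the repressor gene AHRR fell by 2.16 (SE 0.15). ARNT, the partner of the receptor, was chosen after its values were seen and was not called (0.36). Some genes of the response to oxidants were higher in IEC2 as well. NQO1 was at 248, 422 and 516 FPKM against 90.5, 84.3 and 73.5, and SLC7A11, the cystine carrier, and TXNRD1 differed by -2.37 and -2.26. On the AOC side were ALDH1A1, a retinal and aldehyde dehydrogenase (difference 3.69, SE 0.16), MGST1 (3.57, SE 0.27), GSTO1 (2.27, SE 0.13), SOD1 (2.13, SE 0.23) and the ferritin light chain gene FTL (3.05, SE 0.24). After median-of-ratios scaling 11 were higher and 9 lower.

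Several enzymes of sterol synthesis were higher in AOC. Of 38 tested cholesterol and fatty acid genes 14 were called higher and 7 lower. FDFT1, squalene synthase, was at 58.7, 63.5 and 52.4 FPKM against 8.07, 6.37 and 7.2, and SC5D, INSIG1, DHCR7 and MVD rose by 2.79, 3.43, 2.71 and 2.63. The genes called lower were LPL, PLIN2, FABP5, ACSL1, ACSL3, FADS1 and CPT1A, which act in fatty acid uptake, storage, activation, desaturation and transport into mitochondria. The CPT1A call was lost without IEC2 replicate C (-0.91). LPL was listed at 0 in AOC and at 11.5, 6.10 and 12.3 FPKM in IEC2, PLIN2, a coat protein of lipid droplets, was at 6.54 to 7.62 against 58.6 to 67.9, and FABP5 at 30.4 to 36.8 against 136 to 308. FABP3 was the reverse, at 537, 573 and 655 FPKM in AOC against 49.5, 33.2 and 30.3.

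All 12 matched genes of the mitochondrial genome were tested, and 9 were called higher in AOC. COX2, a subunit of cytochrome oxidase, was at 9273, 7591 and 11150 FPKM against 887, 1160 and 1129, and ND3 rose by 4.38 (SE 0.26), whereas COX1 overlapped at 1768 to 2148 and 1318 to 1788. Nuclear genes of the respiratory chain were read after the values were seen. They were called higher in 27 of 55 tested and lower in 1, against 19.1% and 24.3% of all genes. The cytosolic ribosomal proteins, read in the same way, gave a different answer by number and by amount. Of 44 tested, 22 were called higher and 8 lower, with a median of 1.07, yet their summed FPKM was 19340 to 20170 in AOC and 23290 to 30150 in IEC2. RPLP0 was at 849 to 856 FPKM in AOC and 4496 to 5735 in IEC2. Of 50 tested genes of ribosome biogenesis, 11 were called lower (22% against 24.3% of all genes) and 6 higher (12% against 19.1%). These counts became 7 and 6 after median-of-ratios scaling and 15 and 4 with equal totals.

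Both groups held cell cycle genes at high levels. Of 50 tested DNA replication genes 11 were called higher in AOC, 1 lower and 38 were not called, and of 46 tested genes of mitosis and cyclin-dependent kinase inhibitors 14 were higher and 4 lower. These counts moved with the scaling: replication gave 17 and 1 after median-of-ratios scaling and 8 and 3 with equal totals, and mitosis 16 and 2, then 8 and 4. MCM6 was at 167 to 187 FPKM in AOC and 136 to 146 in IEC2 with a difference of 0.33, CDK1 had a difference of 0.61, and CDC45 was the replication gene called lower. The cyclin E gene CCNE2 was at 50.6, 54.8 and 46.2 FPKM against 5.12, 5.93 and 3.82. Of 7 tested cyclin-dependent kinase inhibitor genes, 3 were called higher in AOC. CDKN2A was at 195, 238 and 170 FPKM in AOC and 4.48, 3.84 and 4.71 in IEC2, a difference of 5.23 (SE 0.15). CDKN2B was at 21.5, 26.0 and 21.9 FPKM against 0.256, 1.26 and 0.900, and CDKN2C rose by 4.50 (SE 0.25). The others were not called, with differences of -0.44 for CDKN1A, which was abundant in both groups (131 to 304 and 257 to 288 FPKM), 0.46 for CDKN1B, -0.19 for CDKN2D and 0.67 for CDKN3. RB1, the protein that these inhibitors act through, was at 2.25 to 3.32 FPKM in AOC and 9.49 to 14.3 in IEC2.

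Of 39 tested chromatin genes, 14 were called lower in AOC, 3 higher and 22 not at all, and after median-of-ratios scaling 11 were lower. Their summed FPKM went the other way, at 2554 to 2931 in AOC and 1766 to 2083 in IEC2. JARID2, a partner of the Polycomb complex, was at 0.728, 0.788 and 0.840 FPKM in AOC and 9.92 to 10.9 in IEC2, and KDM5B, a demethylase of histone H3, fell by 2.65 (SE 0.18). RNF2 was at 11.2 to 13.4 FPKM against 63.4 to 76.6 and its Polycomb partner BMI1 at 26.9 to 30.4 against 5.51 to 7, so these subunits differed in opposite directions. DNMT3A and TET1, which write and remove DNA methylation, differed by -1.32 and -1.37, and DNMT1, which maintains it, was not called (0.59, SE 0.16).

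The same genes can be set beside the later stages of the series, as values with no test. The genes were chosen on the same AOC and IEC2 libraries, so the counts are in part fixed by that choice, and the shares of all 9651 genes tested are given beside them. Of the 329 genes past the study's limits on the AOC side, 80 stayed under 1 FPKM in all 3 libraries of day 4 (IEC4) and 121 in all 3 of day 12 (IEC12), against 5.17% and 8.72% of all genes. In 308 and 319 all libraries of that day lay below all AOC libraries, against 27.1% and 28.1% of all genes. Of the 278 genes on the other side, 265 at day 4 and 260 at day 12 were at least 1 FPKM in all 3 libraries, against 88.0% and 81.4% of all genes. CDH5 had a mean of 0 FPKM at day 4 and day 12, PECAM1 of 0.521 and 0.062, ECSCR of 0 and 0.0124 and FLI1 of 0 and 0.0152. The libraries of both days are of unsorted cells. By flow cytometry the study found cells with PECAM1 protein on the later of these days, and its sorted cells stained for VE-cadherin. Values at or near 0 may be failed estimates, so these low RNA values do not show that such cells were absent. Of the 329 genes, 171 at day 4 and 184 at day 12 lay above all IEC2 libraries in all 3 libraries of that day, against 32.5% and 28.9% of all genes. Of the 278 genes, 162 and 178 lay below all IEC2 libraries, against 19.5% and 25.9%. RAMP2 had means of 0.814 and 30.9 FPKM, SELP of 0.0325 and 5.01, CD9 of 218 and 38.1 and FST of 205 and 53.3. Several genes high at day 2 had lower means later, with CYP1A1 at 5.76 and 0.686 FPKM on day 4 and day 12, SFRP2 at 14.3 and 3.28, and SLC7A5 at 35.6 and 4.36, whereas GPM6A stood at 356 and 444.

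**Figure D5:**
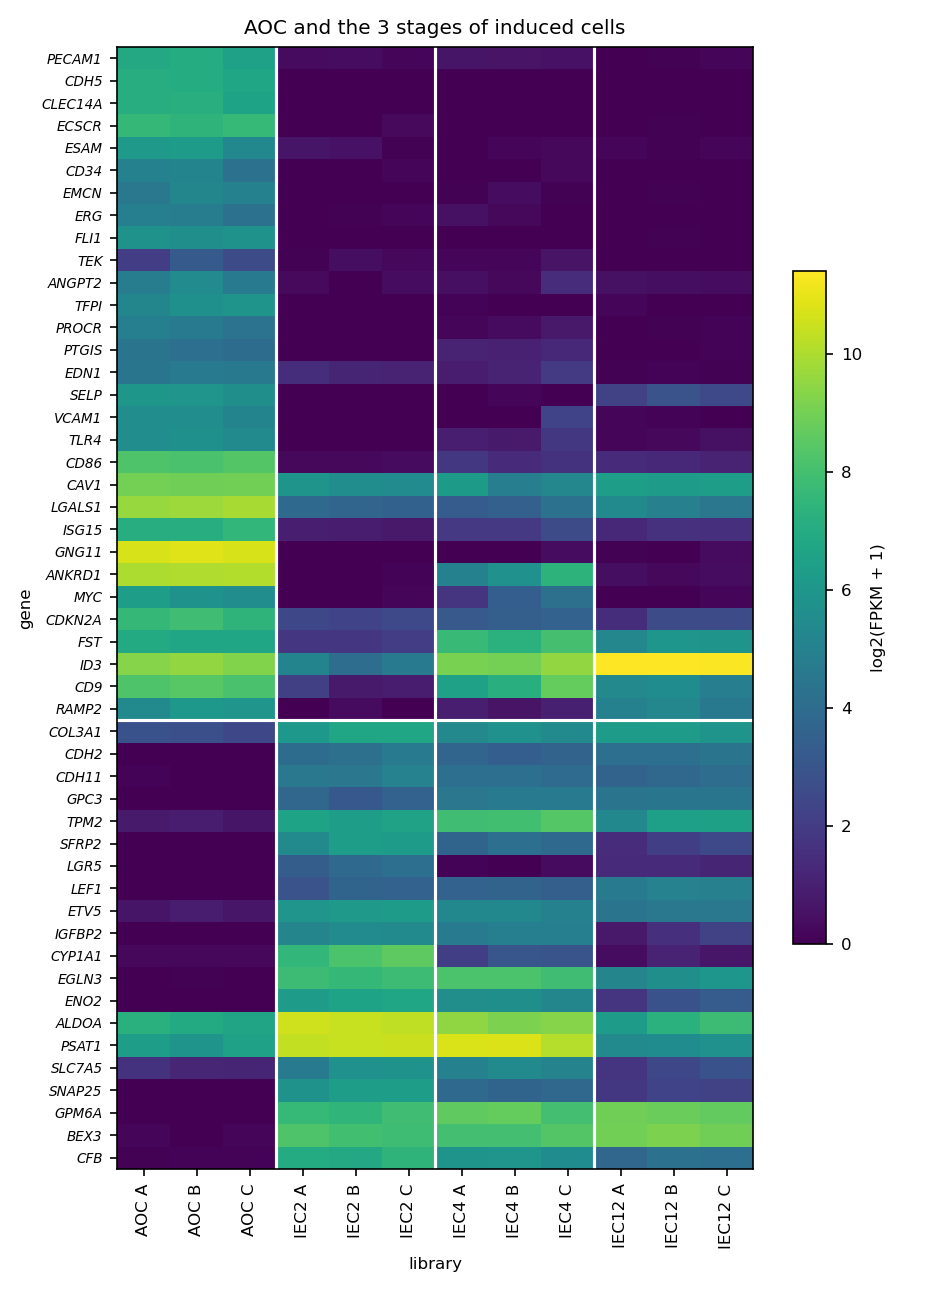
Levels of 50 genes as log2(FPKM + 1), from dark (0) to yellow (about 11), in the 12 libraries of AOC, IEC2, IEC4 and IEC12, with white lines between the groups and between genes higher in AOC (top) and lower in AOC (bottom). The upper left block, AOC alone, is bright for PECAM1, CDH5, CLEC14A, ECSCR and FLI1, which stay dark in all 3 stages of induced cells. Dark fields do not show that the genes or their proteins were absent. ID3, CD9 and RAMP2 become brighter in IEC12 than in IEC2.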

How the data were processed

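RNA was amplified as cDNA and sequenced at a company. FPKM values per Ensembl gene were deposited by the authors. The submitters' processing notes name Bowtie2 2.2.3, TopHat2 2.0.12, Cufflinks 2.2.1 and the susScr11 genome. The FPKM tables were used as deposited, for 6 of the 12 libraries, 3 per group. Nothing in the files gives read numbers, so depth is known only as ratios between libraries, taken from the steps of low values. An exact 0 may be a failed estimate, since genes that every cell uses were near 0 too.

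Symbols came from a gene-name table (13998 of 19681 identifiers), and positions from the RefSeq table of Sscrofa11.1, matched by symbol. Genes with at least 1 FPKM in at least 3 of the 6 libraries were kept (9651). Values were transformed as log2(FPKM + 1) and fitted with limma 3.58.1 in R 4.3.3 (moderated by expression trend), and p-values were adjusted by Benjamini-Hochberg over all 9651 genes. A call needed an adjusted p under 0.05 and a difference of at least 1. Python 3.11.15, NumPy 2.4.6, pandas 2.3.3 and matplotlib 3.10.9 were used for the rest. The fit was tested on simulated data: with 200 altered genes, 176 were called at a log2 size of 1.5 and 196 at a size of 3, and 5 unaltered genes were called. The altered genes were drawn only from those with a mean log2(FPKM + 1) above 3, so recovery of low genes was not tested.

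The members and gene lists were chosen with earlier results of these data known. Named genes are the markers, the called list members with the largest differences (up to 6 in each direction) with well-known members that were not called, the 15 largest non-overlapping differences in each direction and the genes the study follows. Genes said to be chosen after their values were seen fall outside this rule, as do further list members given as contrasts, such as relatives of a named gene. The alternatives were another pseudocount (0.1), other filters, a fit of all 12 libraries, a replicate block, 2 other scalings, a variance not tied to expression and leaving out each library. Libraries of undifferentiated and sorted cells were not analysed here.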

Additional observations from a re-analysis of the deposited data

How the results depend on the processing

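Of 335 named genes, 323 kept their call in every alternative, and no call of any gene reversed in direction. With a pseudocount of 0.1 the genes past the study's limits rose from 607 to 1502, 679 higher and 823 lower, because that pseudocount compresses low values less. Leaving out each library gave 1810 to 1868 genes called higher and 2231 to 2571 called lower. Median-of-ratios scaling gave 2213 higher and 1941 lower (53.3% of calls higher against 44.0%), and equal totals without mitochondrial genes gave 1530 and 2920 (34.4%), so which side holds more genes depends on the scaling. No pairing by the letters A, B and C was seen: deviations of same-letter libraries correlated at -0.124, 0.056 and -0.221. Those of different letters correlated at -0.164 to 0.257. With 3 libraries per group the deviations depend on one another, so these values cannot settle whether the letters pair libraries. A replicate block gave 1847 higher and 2353 lower and kept 4193 of the 4195 calls. Scaling also moved the calls of FLOT1, FLOT2, RELA, NFKB2, CLU, VIM, CCN2, ENG, HK1 and MAT2B across the limit of 1, and the pseudocount those of KDR and ENG. Depth limits the low genes: read numbers are unknown, so no floor can be set for a gene listed at 0.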

Other observations

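Further families were read after their values were seen. Proteasome subunits were called higher in AOC in 15 of 33 tested and lower in none, against 19.1% and 24.3% of all genes. Their median difference was 0.87. Their summed FPKM was 3492 to 3819 in AOC and 2031 to 2293 in IEC2. Nuclear subunits of the respiratory chain summed to 8374 to 9033 FPKM in AOC and 4069 to 5184 in IEC2. Among cytosolic ribosomal proteins RPS29 stood opposite to RPLP0, at 30.2, 55.8 and 39.8 FPKM in AOC and 4.30, 4.91 and 4.53 in IEC2, a difference of 2.90 by limma. Galectins were called higher in 2 of 4 tested, against 19.1% of all genes, and lower in none. LGALS3, which binds glycans at the cell surface, was at 1931, 1822 and 2030 FPKM in AOC and 342, 329 and 208 in IEC2.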
